A study of Mus musculus with 2 samples.

Results

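The cells described here are general capillary endothelial cells of chimeric mouse lung that carried transcripts of at least 3 of the 6 genes Esm1, Inhbb, Grp, Rnd1, Neurl3 and Cxcr4, several of which mark the leading, or tip, cells of vessel sprouts. They were chosen by measured values. A cell had to hold at least 1000 UMIs (unique molecular identifiers, each standing for 1 captured transcript) and under 7% mitochondrial UMIs. It counted as general capillary with at least 3 UMIs each of Gpihbp1 and Plvap, at most 2 of Ednrb and 0 of Gja5 and Slc6a2, and cells with 4 or more of the 5 interferon genes Ifit1, Ifit3, Ifit3b, Rsad2 and Isg15 detected were set aside. By this rule 354 of the 2157 general capillary cells of the donor library and 36 of the 318 of the recipient library were tip-like, together 390 of 2475. The interferon limit set aside 165 donor and 24 recipient cells, of which 29 and 3 held at least 3 of the 6 genes. They made up 7.16% of the 4945 donor-library cells and 1.07% of the 3352 recipient-library cells that passed the filter.

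The study transplanted a single-cell suspension carrying the TdTom fluorescent reporter into C57Bl mice and collected the chimeric lungs 6 months later. Lungs of 3 animals were dissociated together, and live cells without the leukocyte surface protein CD45 were sorted into a td-tomato positive fraction, here the donor library, and a td-tomato negative fraction, here the recipient library. Both libraries therefore came from the same 3 lungs, and each is 1 library of pooled animals with no replicate. The age and the conditioning of the animals are not given in the sources used here, and the reporter transcript was not analysed here. The donor library held 37997269 UMIs in 6319 barcodes and the recipient library 26201315 in 3784. Because each fraction is 1 library, no difference below was tested, and every interval is a 95% exact interval (binomial for shares, conditional for ratios) that covers counting error only. The limit printed beside a count of 0 is instead the share or level that 3 counts would give.

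Lung capillaries consist of general capillary cells, which line most of the capillary bed and can divide after injury, and of aerocytes, the thin cells specialised for gas exchange. When a vessel sprouts, endothelial cells receiving the most VEGF signal take on a tip cell state, raise the Notch ligand Dll4 and the secreted proteoglycan Esm1, and restrain their neighbours through Notch. Inhbb encodes the subunit of activin B, a secreted ligand of the TGF-beta family. Cxcr4 is the receptor of the chemokine Cxcl12, Rnd1 is a small G protein without normal GTPase activity, Neurl3 is a ubiquitin ligase of the neuralized family, and Grp encodes gastrin-releasing peptide, best known in the lung as a product of neuroendocrine cells.

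In the GRCm38 build, Esm1 (ENSMUSG00000042379) lies on the plus strand of chromosome 13 from 113209659 to 113218098. Inhbb (ENSMUSG00000037035) lies on the minus strand of chromosome 1 from 119415465 to 119422248, on the same chromosome as Cxcr4 (128588199 to 128592293) and Neurl3 (36264597 to 36274679), both also on the minus strand. Rnd1 lies on the minus strand of chromosome 15 from 98663421 to 98677461. The promoters of the 2 genes that give these cells their name are shown because the rule turns on their transcripts. Each run holds 250 bases before and 50 bases from the start of the gene, from RefSeq on GRCm38.p6, 5′ to 3′ on the strand of the gene, and capitals mark the core letters recognised by ETS factors, the transcription factor family of many endothelial enhancers (AGGAA, or TTCCT on the other strand). The Esm1 window is chr13:113209409-113209708 on the plus strand, and the Inhbb window is chr1:119422199-119422498 on the minus strand.
Esm1: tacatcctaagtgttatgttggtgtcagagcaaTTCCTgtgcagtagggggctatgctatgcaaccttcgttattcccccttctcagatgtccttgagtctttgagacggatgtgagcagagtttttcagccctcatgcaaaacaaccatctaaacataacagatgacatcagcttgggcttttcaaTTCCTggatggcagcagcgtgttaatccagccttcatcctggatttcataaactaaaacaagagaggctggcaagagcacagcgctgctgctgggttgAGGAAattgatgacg
Inhbb: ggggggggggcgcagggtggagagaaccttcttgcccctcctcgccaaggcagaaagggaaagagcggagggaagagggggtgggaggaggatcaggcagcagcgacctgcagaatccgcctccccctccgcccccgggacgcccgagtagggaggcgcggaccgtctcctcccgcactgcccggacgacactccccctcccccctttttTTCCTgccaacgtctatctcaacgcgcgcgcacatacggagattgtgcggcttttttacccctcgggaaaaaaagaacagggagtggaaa
Esm1 held the ETS core at 3 places, beginning at bases -217, -63 and 36 from the start, and Inhbb held it at 1 place, at base -40. The same letters occur in 66.7% of 32851 mouse promoters of this length, so their presence in these windows is a description only. Neither window held the RBPJ core TGGGAA on either strand, which 25.6% of promoters hold, nor the hypoxia response core ACGTG, which 19.6% hold. Cxcr4 held none of the 3 motifs and Neurl3 held 1 hypoxia response core, at base -54 from the start that RefSeq gives, which lies inside the gene as placed above.

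Most general capillary cells under the interferon limit held few of the 6 genes, and the number of cells fell steadily from 1 gene upward. Among the 1992 such cells of the donor library, 573 held 0 of the genes, 659 held 1 and 406 held 2, just outside the rule, while 215 held 3, just inside it, 92 held 4, 39 held 5 and 8 held all 6. Among the 294 such cells of the recipient library the counts were 96, 104, 58, 22, 11, 3 and 0 in the same order. The step from just outside to just inside went from 20.4% to 10.8% of cells in the donor library and from 19.7% to 7.48% in the recipient library. Cells with exactly 3 genes were 60.7% of the donor and 61.1% of the recipient tip-like cells.

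**Figure D1:**
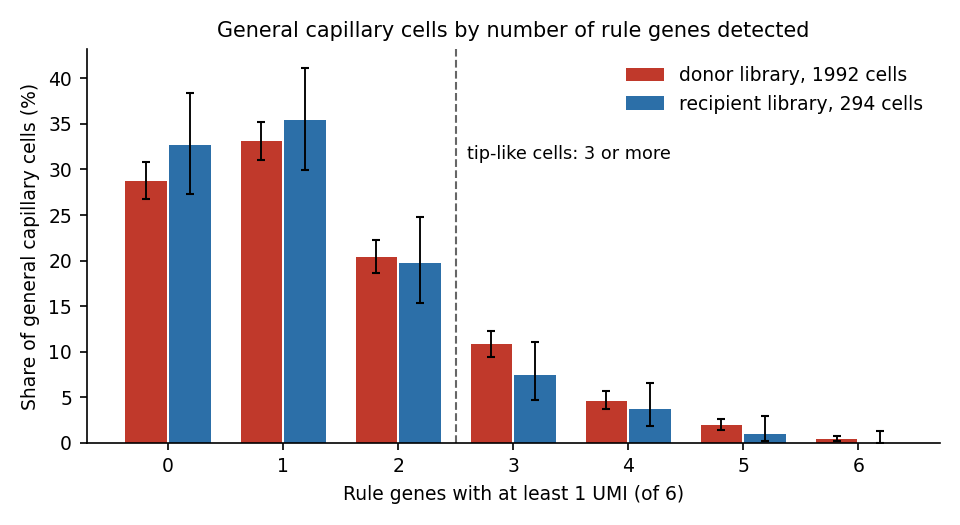
Share of general capillary cells under the interferon limit (vertical axis, percent) by the number of the 6 rule genes with at least 1 UMI (horizontal axis), for the 1992 donor-library and 294 recipient-library cells; error bars are 95% exact binomial intervals. The shares fall from 1 gene upward without a gap at the rule's limit of 3, and 0 of 294 recipient-library cells held all 6, which allows up to 1.02% by the limit of 3 counts and 1.247% by the exact interval drawn.

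The levels of the rule genes follow from the rule and are given as a description, in CPM (UMIs summed over the cells and normalised to the total UMIs of those cells). Esm1, the secreted VEGF-responsive proteoglycan endocan, stood at 482 CPM in donor tip-like and 41.6 CPM in the other donor general capillary cells, and at 654 and 15.02 CPM in the recipient library. It was detected in 65.8% and 8.55% of these donor-library cells and in 77.8% and 6.98% of the recipient-library cells. Inhbb stood at 85.4 and 7.36 CPM in the donor library and at 103 and 4.57 CPM in the recipient library. It was the least detected of the 6 among donor and recipient tip-like cells, at 34.7% and 36.1%, against 3.30% and 1.94% of the other cells. Grp was detected in 58.2% of donor but 38.9% of recipient tip-like cells, and in 12.9% and 1.94% of the other cells. For Rnd1 the shares were 40.1% and 50% of tip-like cells against 7.45% and 9.30% of the others. Neurl3 and Cxcr4 were the commonest members in the donor library and the least restricted in both. Neurl3 was found in 76.8% and 75% of tip-like cells against 34.9% and 44.6% of the others, and Cxcr4 in 79.1% and 69.4% against 22.7% and 20.5%. The most frequent combination in the donor library was Esm1 with Neurl3 and Cxcr4, in 46 cells or 13.0%.

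Each rule gene was also read in cells sorted by the other 5 genes alone, so that its own detection did not decide its group, although all 6 come from the same cells and the gene set was chosen on these data. In the donor library all 6 were found more often in cells with at least 3 of the other 5 than in cells with fewer. The share of all genes found more often in such cells is not given here. Depth differed too: for Esm1 the 2 groups held medians of 5761.5 and 5243 UMIs. Esm1 was detected in 49.2% (42.6 to 55.7) of the 238 cells with at least 3 of the others and in 14.6% (13.0 to 16.3) of the rest. Inhbb was detected in 25.2% (20.5 to 30.5) against 5.88% (4.81 to 7.12), the widest ratio of the 6 in this library. Neurl3 showed the narrowest, at 59.4% (52.3 to 66.2) against 40.4% (38.2 to 42.8). Between them were Grp at 41.7% against 17.9%, Rnd1 at 25.1% against 11.3% and Cxcr4 at 61.7% against 29.6%.

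The recipient library gave the same order of the groups for every one of the 6 genes, with wide intervals because 20 to 29 cells held at least 3 of the other 5. Esm1 was found in 60.0% (36.1 to 80.9) against 12.4% (8.75 to 16.9), and Grp in 24.1% (10.3 to 43.5) against 4.53% (2.36 to 7.78). Rnd1 was found in 35.7% against 12.0% and Cxcr4 in 52.2% against 24.4%. The intervals overlapped for Inhbb, at 14.8% (4.19 to 33.7) against 5.24% (2.90 to 8.64), and for Neurl3, at 60.9% (38.5 to 80.3) against 47.2% (41.2 to 53.4). Depth could raise detection of all 6 together, so cells were also thinned to 3000 UMIs, with at least 2 of the other 5 as the limit. The order held for all 6 genes in both libraries: in the donor library Esm1 stood at 30.3% against 9.62%, Inhbb at 12.1% against 2.93% and Neurl3 at 39.4% against 31.5%. Thinned Esm1 in the recipient library stood at 37.5% (22.7 to 54.2) against 6.36% (3.60 to 10.3). For every other rule gene the thinned recipient intervals overlapped, as for Rnd1 at 13.2% (4.41 to 28.1) against 7.14% (4.22 to 11.2). In cells not thinned, Inhbb was detected in 23.1% of donor general capillary cells with Esm1 and 5.62% of those without. The recipient shares were 19.6% (9 of 46 cells) and 3.63%. Within the tip-like cells, chosen by both genes, the shares were 35.6% and 33.1% in the donor and 32.1% and 50% in the recipient library. Both genes were held by 83 of 354 donor and 9 of 36 recipient tip-like cells.

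**Figure D2:**
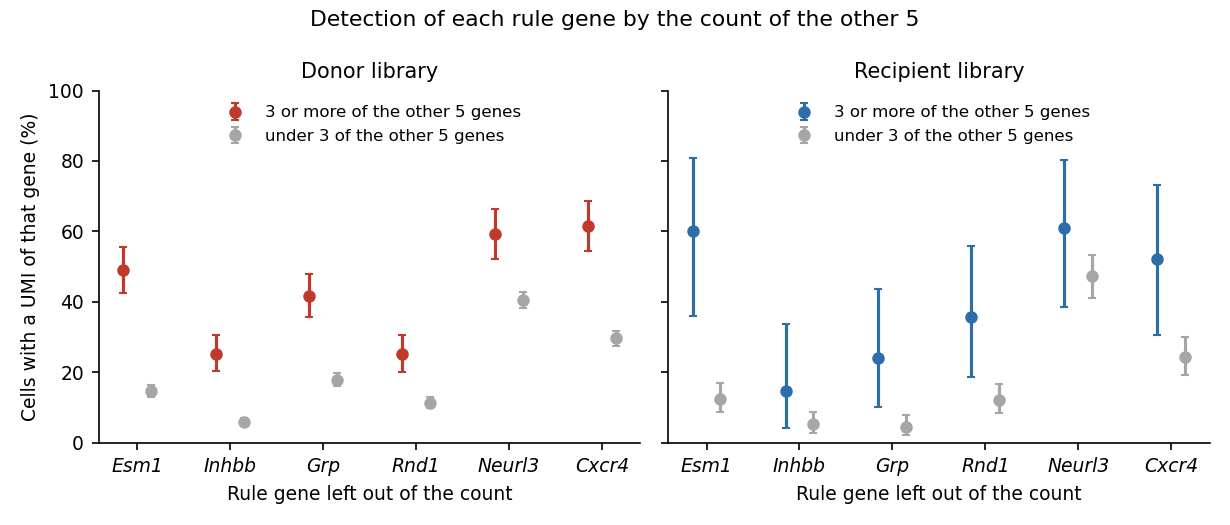
Share of general capillary cells with at least 1 UMI of each rule gene (vertical axis, percent), for cells with at least 3 of the other 5 genes and for cells with fewer, in the donor (left) and recipient (right) libraries; error bars are 95% exact binomial intervals. All 6 genes are higher in the first group in both libraries, from 25.1% to 61.7% against 5.88% to 40.4% in the donor library.

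Tip-like cells were 16.4% (14.9 to 18.0) of donor and 11.3% (8.06 to 15.3) of recipient general capillary cells, and these intervals overlapped slightly. After every cell was thinned to 3000 UMIs, which left out 86 donor and 18 recipient cells that were too shallow, 8.40% (7.24 to 9.68) of the donor and 5% (2.83 to 8.11) of the recipient cells still held 3 of the 6 genes. The share went up with depth in the donor library, from 6.98% of cells with 1000 to 3000 UMIs through 12.7% (3000 to 5000) and 18.1% (5000 to 8000) to 26.0% of cells with 8000 or more. For recipient cells it was 5.56%, 14.9%, 9.20% and 14.0% over the same ranges. Donor tip-like cells held a median of 5677.5 UMIs against 5233.5 in the other donor cells, whereas recipient tip-like cells held 5165.5 against 5494. The number of tip-like cells is therefore a count of cells in which 3 of the genes were captured, and requiring 2 genes instead gave 35.2% and 29.6%. Barcodes present in both libraries numbered 816, and 3 donor and 1 recipient tip-like cells carried one. Without both copies of every such barcode the shares were 16.3% and 11.5%.

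The tip-like cells also lay near each other in the rest of the transcriptome. On principal components computed without the rule and gate genes, from cells thinned to 3000 UMIs, tip-like cells made up 35.9% on average of the 20 nearest neighbours of a donor tip-like cell and 12.7% of those of another general capillary cell, where 17.9% of all cells placed were tip-like. The neighbour share was 8.09% around cells with 0 rule genes, 11.8% with 1, 20.6% with 2 and 47.2% with 4 or more. For the recipient library the corresponding values were 25.6% around tip-like and 6.90% around other cells, where 12.5% were tip-like. The recipient share was 4.64% around cells with 0 rule genes, 7.95% with 1 and 24.6% around the 14 cells with 4 or more. The cells placed included 336 donor and 33 recipient tip-like cells. These numbers correspond to leaving out cells under 3000 UMIs and the cells with other lineages' genes described below. Cells just outside the rule, with 2 genes, thus stood near the library average in the donor library, and at 8.65% in the recipient library they stood below it.

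Outside the general capillary gate, arterial cells (at least 2 UMIs of Gja5 and 1 of Cdh5) held Esm1, Inhbb and Grp most often. Of the 149 donor arterial cells 38.3% held Esm1, 23.5% Inhbb, 32.2% Grp and 65.8% Cxcr4, and of the 62 recipient arterial cells 24.2%, 6.45%, 9.68% and 43.5%. Venous cells (at least 2 UMIs of Slc6a2 and 1 of Cdh5) shared only part of the set: Rnd1 was found in 38.4% and Neurl3 in 51.2% of the 125 donor venous cells, but Esm1 in 4.80% and Cxcr4 in 2.40%. Aerocytes lay at the other end although they were deeper, with a median of 8856 UMIs, and of the 1429 in the donor library 1.96% held Esm1, 0.070% Inhbb and 0.630% Grp. Free RNA in droplets gives a low share even in cells that do not express a gene. Of the 778 recipient-library fibroblasts (median 7385.5 UMIs), 1.03% held Esm1, 0.771% Inhbb, 0.129% Grp, 2.57% Rnd1, 1.41% Neurl3 and 7.97% Cxcr4. Their 29 Esm1 UMIs lay in 8 cells. Whether these shares stand for free RNA was not tested, and they do not cover the donor library. Pericytes were the other cells with frequent Cxcr4, in 71.0% of 482 recipient-library cells, but only 0.622% of them held Esm1. Among genes the rule did not use, donor arterial cells held 489 CPM of Dll4, 513 of Kdr, 391 of Sema3c and 3105 of Hpgd. Donor tip-like cells held 488, 441, 482 and 2923 CPM, so these levels were not particular to them. Gja4 stood apart, at 867 against 367 CPM. Recipient arterial cells held 246, 256, 174 and 1503 CPM of the first genes, against 370, 508, 258 and 1068 CPM in tip-like cells.

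**Figure D3:**
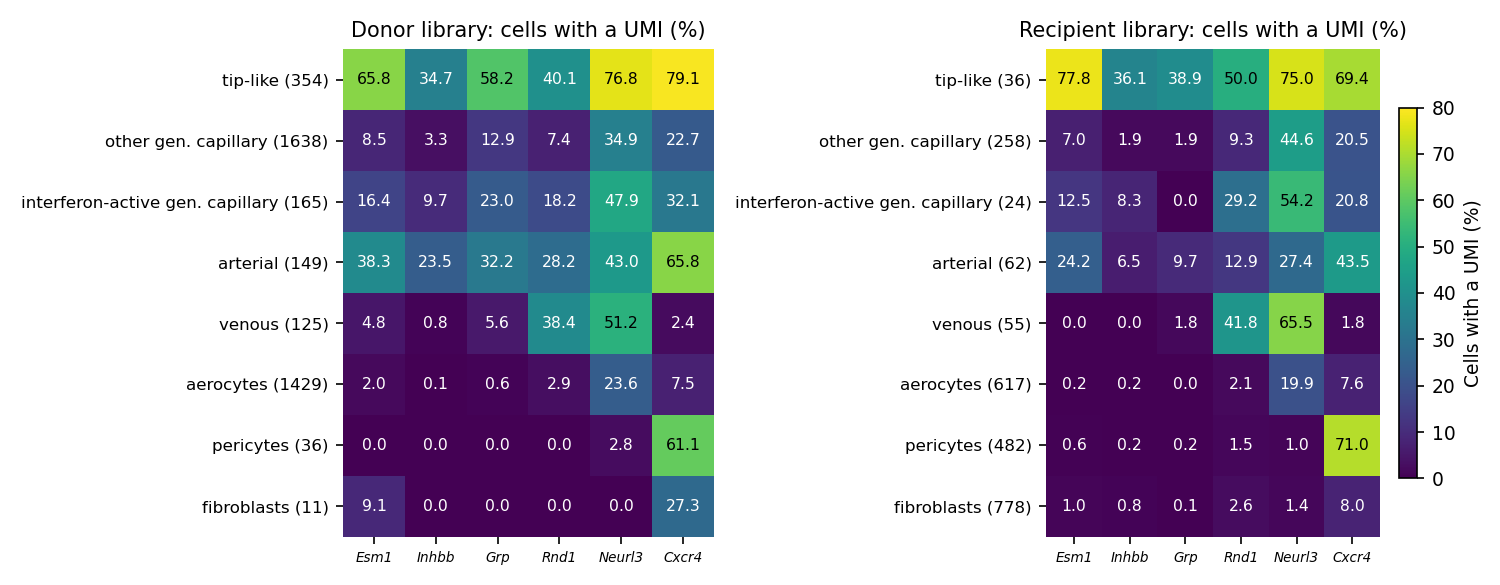
Share of cells with at least 1 UMI of each of the 6 rule genes (colour, percent) by cell class (rows, with cell numbers) in the donor and recipient libraries. Tip-like cells were chosen by these genes, and arterial cells, which were not, show the next highest shares of Esm1 in both libraries.

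Whether the cells were single general capillary cells was read from markers of other lineages, which the rule did not use. A few of them held large amounts of another cell's RNA: 12 donor and 2 recipient tip-like cells had at least 10 UMIs from one list of fibroblast, pericyte, alveolar, ciliated, leukocyte or blood genes, counted without Hopx of the alveolar type 1 list and Tppp3 of the ciliated list. So did 23 of the 1638 other donor cells and 10 of the 258 other recipient cells, beside 12 of 354 and 2 of 36 tip-like cells. The 5 alveolar type 2 genes (Sftpc, Sftpb, Sftpa1, Lamp3 and Slc34a2, of surfactant secretion) summed to 2092 CPM in donor tip-like and 25.9 CPM in other donor cells, and 98.4% of those UMIs lay in 3 cells. The 6 alveolar type 1 genes, Hopx included, summed to 833 and 528 CPM in the donor library, and to 2617 and 477 CPM in the recipient library, where 93.3% lay in 3 cells. The leukocyte list stood at 429 and 16.5 CPM in the donor library, 97.7% of the tip-like UMIs in 3 cells. Lyz2 made up 971 of these 979 UMIs, 930 of them in 1 cell. Of the 8 genes on the list 4 had UMIs in donor tip-like cells, and Ptprc, Cd52, Tyrobp and Cd3e were at 0. Fibroblast genes stood at 19.7 and 11.5 CPM in the donor library and at 99.0 and 281 CPM in the recipient library. Pericyte genes stood at 94.6 and 56.6 CPM and at 60.3 and 343 CPM, blood genes at 131 and 54.3 CPM and at 12.9 and 165 CPM, and mesothelial genes at 0 throughout. Of the neuroendocrine list, relevant because of Grp, donor tip-like cells held 2 UMIs in all and recipient tip-like cells 0, and Calca and Chga were at 0 in both. The highest doublet scores fell on 11 donor and 1 recipient tip-like cells, and on 33 donor and 9 recipient other general capillary cells. Cells with other lineages' genes or high doublet scores were kept in the sums below, since their part in each result was not tested. Values without the cells that held other lineages' genes are given beside several of the results.

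Summed over cells and without the 6 rule genes, 8494 genes could be compared between tip-like and other general capillary cells in the donor library, that is, genes with a mean of at least 10 CPM worth at least 20 UMIs in the smaller sum. Of these 3.1% (263) were at least 1.5-fold higher and 2.52% (214) at least 1.5-fold lower in tip-like cells, and the median log2 ratio was -0.0033. Without the cells that held other lineages' genes 204 of 8401 genes were higher and 242 lower, so that lower genes outnumbered higher ones. In the recipient library, where 36 cells limited the comparison to 2079 genes, 6.2% (129) were higher and 7.31% (152) lower, with a median of -0.019. Of the 2077 genes compared in both libraries, 29 were at least 1.5-fold higher in both and 22 lower in both. In opposite directions stood 3 genes higher in the donor and lower in the recipient library and 2 genes the other way. Without the cells that held other lineages' genes 20 were higher in both, 21 lower in both, and 1 each way stood in opposite directions.

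By the naming rule, which asked for at least a 2-fold ratio in the donor library and the same direction in the recipient library, the 15 genes with the largest increases were Sftpc, Sftpd, Slc34a2, Alcam, Aqp5, Igfbp6, Gja1, Ager, Col4a4, Igfbp2, Scgb3a1, Cldn18, Slc45a4, Fbln2 and Clic3. Most of them describe a few cells and not the group, because for 12 of the 15 at least 75% of the donor tip-like UMIs lay in 3 cells. Sftpc stood at 3624 UMIs in donor tip-like cells, of which 3569 were in 1 cell. Ager, the alveolar type 1 receptor for advanced glycation products, had 92.0% of its donor and 97.96% of its recipient tip-like UMIs in 3 cells. Without the cells that held other lineages' genes, 4 of the 15 stayed among the leading genes: Gja1, Scgb3a1, Slc45a4 and Fbln2, the last with 80.4% of its UMIs in 3 cells. The rule then also named Gda, Meox1, Ivns1abp, Abca1, Noct, Col15a1, Prkg1, Trim47, Nrp2, Deptor and Mecom, a list that was drawn up after the few cells had been seen.

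Gja1, which encodes the gap junction protein connexin 43, showed the largest increase that did not rest on 3 cells in the donor library. Its level was 69.8 CPM in donor tip-like and 7.14 CPM in other donor cells, 9.78-fold (7.27 to 13.3), and 147 and 11.1 CPM in the recipient library, 13.2-fold (7.18 to 25.2). The recipient value rested on 34 UMIs, 76.5% of them in 3 cells, and the log2 ratio there went from 3.72 to 1.74 without those cells. Ivns1abp, a kelch-repeat protein, rested on more UMIs: 258 and 72.3 CPM in the donor library, 3.57-fold (3.19 to 4.00), and 328 and 64.0 CPM in the recipient library, 5.12-fold (3.75 to 6.98). Without the cells holding other lineages' genes the donor ratios of these genes were 9.88 and 3.75. Slc45a4, a solute carrier of the cell membrane, stood at 66.7 and 10.6 CPM in the donor library, 6.30-fold (4.84 to 8.22), and in the recipient library 13 UMIs in tip-like cells (56.1 CPM) faced 1.31 CPM in the others. Smaller sums lay behind Noct, a circadian gene (39.5 and 12.4 CPM donor, 73.3 and 21.6 CPM recipient), and Abca1, the cholesterol exporter (29.0 and 9.03 CPM donor, 38.8 and 12.4 CPM recipient). The ratios were 3.19 and 3.40 for Noct and 3.21 and 3.13 for Abca1.

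Genes lower in tip-like cells were spread over many cells. The naming rule gave 8, Vegfc, Wfdc1, Kank4, Lilrb4a, Sema3c, Car14, Hs3st1 and Ptgs1, and all 8 were named again without the cells that held other lineages' genes. Vegfc, the growth factor of lymphatic vessels, stood at 14.5 CPM in donor tip-like and 56.9 CPM in other cells, 3.93-fold lower (2.76 to 5.77), and at 25.9 and 103 CPM in the recipient library. Sema3c, a secreted semaphorin of general capillary cells, stood at 483 and 1004 CPM in the donor library, 2.08-fold lower (1.95 to 2.22), and at 259 and 1015 CPM in the recipient library, 3.92-fold lower (3.03 to 5.16). Hs3st1, a heparan sulfate sulfotransferase, was 2.05-fold lower (1.82 to 2.32) in the donor library, at 132 against 271 CPM, and 3.78-fold lower (2.30 to 6.67) in the recipient library, at 69.0 against 261 CPM. Ptgs1, the constitutive cyclooxygenase, stood at 39.1 and 79.1 CPM in the donor library and at 17.3 (4 UMIs) and 73.8 CPM in the recipient library.

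Among genes reported in sprouting endothelium, other than the 6 of the rule, more were higher than lower. Of 24 on the list 19 could be compared in the donor library, of which 7 were at least 1.5-fold higher and 1 lower, with a median log2 ratio of 0.31, and of 11 compared in the recipient library 5 were higher and 0 lower, with a median of 0.49. Over all genes compared the shares were 3.1% higher and 2.52% lower in the donor library and 6.2% and 7.31% in the recipient library, and the counts of the lists below are read beside these. Of the list 6 of 18 and 4 of 10 were higher without the cells holding other lineages' genes, Hspg2 and Rgcc no longer being among those of the donor and recipient library, respectively. Dll4, the Notch ligand of tip cells, stood at 489 CPM in donor tip-like and 284 CPM in other cells, 1.72-fold (1.61 to 1.85). In the recipient library it stood at 371 and 170 CPM, 2.18-fold (1.69 to 2.80). Donor and recipient arterial cells held 489 and 246 CPM of it. Cd34, a sialomucin on tip cell filopodia, was 2.14-fold higher (1.86 to 2.47) in the donor library, at 136 against 63.5 CPM, and 1.61-fold higher (1.10 to 2.30) in the recipient library, at 168 against 105 CPM. Plaur, the urokinase receptor, stood at 235 and 146 CPM in the donor library and at 298 and 178 CPM in the recipient library, 1.61-fold and 1.68-fold. The list did not move in one direction. Apln, the apelin ligand, was 1.66-fold higher (1.17 to 2.32) in the donor library at only 22.4 against 13.5 CPM, and recipient tip-like cells held 1 UMI of it. Pdgfb, which recruits pericytes to sprouts, was 1.55-fold lower (1.42 to 1.69) in the donor library, at 255 against 394 CPM, and stood at 242 and 258 CPM in the recipient library.

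Notch ligands, receptors and targets each held genes that differed and genes that did not. Of 14 compared in the donor library 3 were higher and 0 lower, with a median log2 ratio of 0.11, and of 7 in the recipient library 2 were higher and 1 lower, with a median of 0.50. Without the cells holding other lineages' genes 2 of 13 and 5 of 7 were higher. Among receptors, Notch1 stood at 420 and 301 CPM in the donor library and at 410 and 280 CPM in the recipient library, 1.40-fold and 1.46-fold, short of the limit. Notch2 was 1.84-fold higher (1.21 to 2.76) in the donor library at a low 16.2 against 8.81 CPM, and 1.47-fold without the cells holding other lineages' genes, while recipient tip-like cells held 0 UMIs of it against 17.0 CPM in the others. Notch4, at 163 and 177 CPM and at 104 and 118 CPM, did not differ by that much either. Among ligands, Jag1 stood at 40.8 and 37.6 CPM in the donor library, unlike Dll4 above. The targets went apart: Hey1, a Notch target of arterial cells, was 1.51-fold higher (1.39 to 1.65) at 332 against 220 CPM in the donor library and 1.92-fold higher (1.44 to 2.52) at 289 against 151 CPM in the recipient library. Hes1, the other classical target, stood at 424 and 564 CPM in the donor library and was 2.69-fold lower (2.03 to 3.63) in the recipient library, at 224 against 604 CPM.

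Arterial genes went both ways. Of 10 compared in the donor library 3 were higher (Hey1, Efnb2 and Mecom) and 2 lower (Gja4 and Sox17), and of 7 in the recipient library 2 were higher and 2 lower. In the donor library 4 and 3 of the 10 were higher and lower without the cells holding other lineages' genes. The following genes were picked from that list after their values were seen. Efnb2, the arterial ephrin that also acts in sprouting, was 1.74-fold higher (1.63 to 1.85) in the donor library, at 600 against 345 CPM, and 1.81-fold higher (1.47 to 2.21) in the recipient library, at 539 against 298 CPM. Gja4, the arterial connexin 37, went the opposite way from Gja1, at 367 against 613 CPM in the donor library, 1.67-fold lower (1.55 to 1.80), and at 311 against 542 CPM in the recipient library, 1.74-fold lower (1.37 to 2.25). Sox17, an arterial transcription factor, was 1.54-fold lower (1.40 to 1.70) and 1.75-fold lower (1.32 to 2.34). Mecom, a transcription factor of arterial endothelium, stood at 88.7 and 37.1 CPM in the donor library, 2.39-fold higher (1.99 to 2.85), with 15 UMIs behind its recipient tip-like level of 64.7 CPM.

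Genes typical of general capillary cells were lower or little changed, and 0 of the 17 compared were higher in either library. In the donor library 4 of the 17 were lower (Glp1r, Sema3c, Hpgd and Scn7a), with a median log2 ratio of -0.15, and in the recipient library 6 were lower, the same 4 with Tmem100 and Itga1, with a median of -0.26. Hpgd, which degrades prostaglandins, stood at 2927 CPM in donor tip-like and 4655 CPM in other cells, 1.59-fold lower (1.55 to 1.63), and at 1070 and 2998 CPM in the recipient library, 2.80-fold lower (2.47 to 3.20). Glp1r, the glucagon-like peptide receptor, was 1.77-fold lower (1.65 to 1.91) in the donor library, at 363 against 643 CPM, and 1.74-fold lower (1.43 to 2.15) in the recipient library, at 453 against 790 CPM. Scn7a, a sodium channel of capillary cells, was 1.73-fold and 2.69-fold lower, at 133 against 230 CPM and at 168 against 453 CPM. The other 13 general capillary genes of the donor comparison and the other 11 of the recipient comparison lay within 1.5-fold. Of the 11 pan-endothelial genes, Sox17 alone was 1.5-fold apart in the donor library. In the recipient library it was lower too, and Erg and Sox7, both endothelial transcription factors, were 1.65-fold (1.04 to 2.54) and 1.54-fold (1.22 to 1.92) higher.

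The levels of these genes went with the number of rule genes in the donor library. Dll4 stood at 233, 256, 390, 437 and 565 CPM in cells with 0, 1, 2, 3 and 4 or more rule genes, and Efnb2 at 250, 334, 481, 511 and 732 CPM. Ivns1abp went from 56.2 CPM with 0 genes to 107 with 2, 191 with 3 and 357 with 4 or more. In the other direction Sema3c went from 1289 CPM with 0 genes through 1003, 654 and 554 to 379 CPM with 4 or more, and Hpgd from 5230 to 2292 CPM. Cells with 2 rule genes were thus already between the extremes, and no jump marked the limit of 3. In the recipient library Dll4 stood at 101, 194, 218, 368 and 375 CPM and Hpgd at 3871, 2772, 2254, 1091 and 1035 CPM, while Sema3c reached its lowest level, 209 CPM, with 3 genes and stood at 341 CPM with 4 or more. These groups are cells of 1 library, the genes were picked because tip-like and other cells differed in them, and the gradient was not tested.

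**Figure D4:**
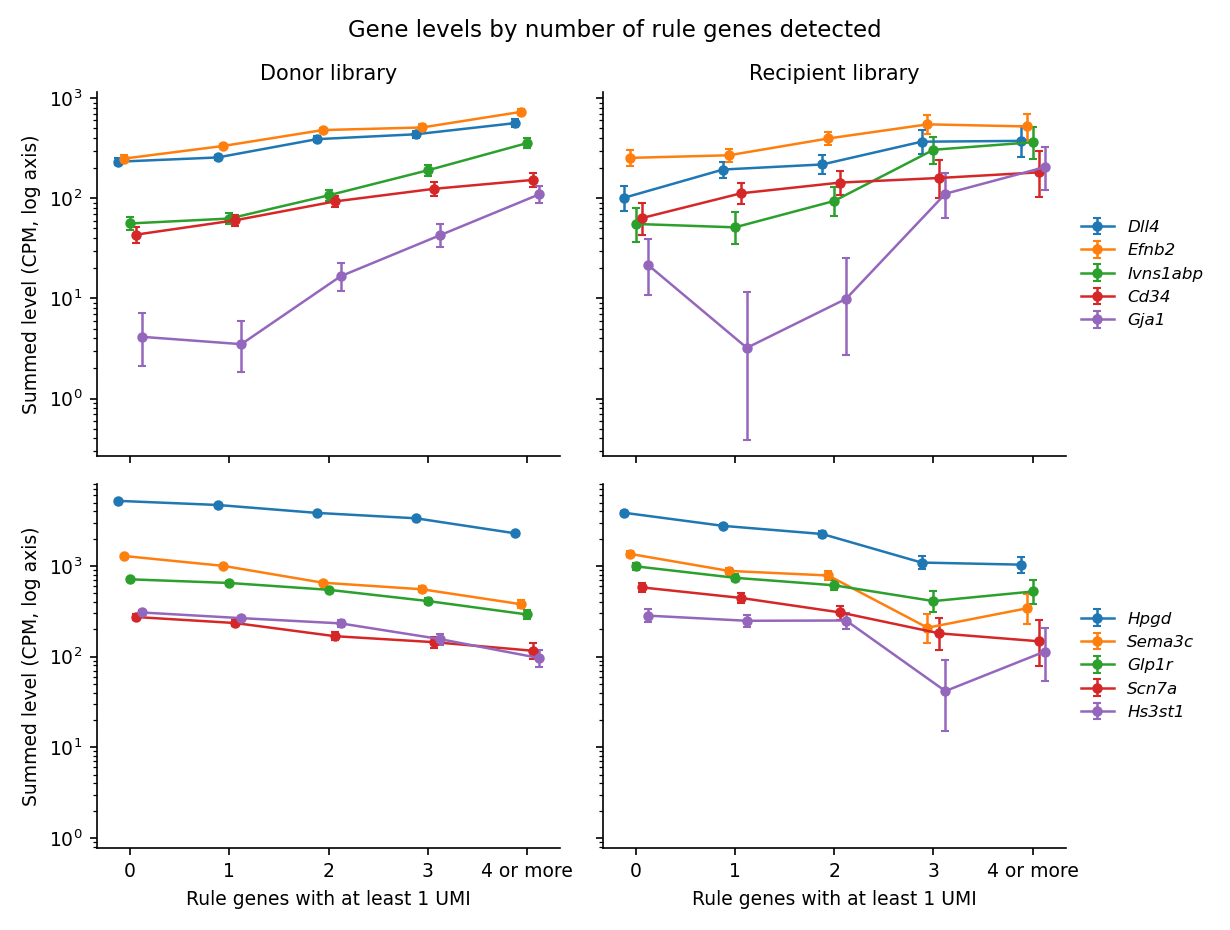
Level of 10 genes (vertical axes, CPM of summed UMIs with 95% exact Poisson intervals) in general capillary cells by the number of rule genes detected (horizontal axes), in the donor and recipient libraries. Dll4, Efnb2, Ivns1abp, Cd34 and Gja1 rise from few to many rule genes and Hpgd, Sema3c, Glp1r, Scn7a and Hs3st1 decline, by steps of unequal size.

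Receptors and ligands of vessel growth differed from gene to gene. Of 8 genes of the VEGF list compared in the donor library Nrp2 was higher and Vegfc, described above, lower, and of 4 in the recipient library Vegfa and Kdr were higher. Kdr, the main VEGF receptor, stood at 442 and 324 CPM in the donor library, 1.36-fold (1.27 to 1.46), and at 509 and 314 CPM in the recipient library, 1.62-fold (1.32 to 1.99). Flt1, another VEGF receptor, stood at 794 and 684 CPM in the donor library and at 703 and 619 CPM in the recipient library, and the coreceptor Nrp2 was 2.66-fold higher (1.94 to 3.63) in the donor library at a low 31.2 against 11.7 CPM. Vegfa itself was 1.79-fold higher in recipient tip-like cells, at 1061 against 592 CPM, but the ratio was 0.934 without the cells holding other lineages' genes. None of the 4 angiopoietin and Tie genes compared in the donor library and none of the 3 in the recipient library was 1.5-fold apart. Angpt2, the sprouting-associated angiopoietin, stood at 66.7 and 53.9 CPM in the donor library and at 34.5 and 48.3 CPM in the recipient library.

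Most partners and targets of activin B that could be compared lay within 1.5-fold. Of 24 genes of the activin, TGF-beta and BMP pathways compared in the donor library 2 were higher and 0 lower, with a median log2 ratio of 0.017, and of 12 in the recipient library 0 were higher and 1 lower. Inhba, the other activin subunit, was detected in 0 of 354 donor and 0 of 36 recipient tip-like cells. By the limit of 3 counts, not an exact interval, this allows shares of up to 0.847% and 8.33% of cells with a UMI. Of the activin receptors, Acvr1b stood at 42.1 and 44.5 CPM and Acvr2b at 18.9 and 21.5 CPM in the donor library. In the recipient library, where 7 and 3 tip-like UMIs were too few for the comparison, they stood at 30.2 and 50.3 CPM and at 12.9 and 20.3 CPM. Tgfb2, a secreted TGF-beta ligand, was 2.06-fold higher (1.66 to 2.54) in the donor library, at 59.7 against 29.0 CPM, and stood at 60.4 and 48.3 CPM in the recipient library. Id2, a target of BMP signals, was 1.69-fold lower (1.13 to 2.63) in the recipient library, at 112 against 189 CPM.

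Basement membrane genes were higher or level. In the donor library 5 of 14 were higher and 0 lower, with a median log2 ratio of 0.37, and 3 of 13 without the cells holding other lineages' genes. Of 5 compared in the recipient library 1 was higher. Sparcl1, a matricellular glycoprotein, stood at 347 and 172 CPM in the donor library, 2.01-fold (1.85 to 2.20), and at 552 and 244 CPM in the recipient library, 2.27-fold (1.84 to 2.78). Col15a1, a collagen at the outer face of the basement membrane, was 2.87-fold higher (2.22 to 3.69) in the donor library, at 48.3 against 16.8 CPM, and Lama4, the endothelial laminin chain, was 2.52-fold higher (1.64 to 3.82) at 17.1 against 6.80 CPM. The main collagen Col4a1, by contrast, stood at 613 and 527 CPM in the donor library and at 733 and 612 CPM in the recipient library.

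Aerocyte and venous genes were mostly level or lower. Of 6 aerocyte genes compared in the donor library only Apln was higher, and Car4 stood at 205 and 305 CPM there, 1.49-fold lower (1.35 to 1.64). Of 3 compared in the recipient library Emp2 alone was higher, 4.35-fold, and it stood at a ratio of 1.18 without the cells holding other lineages' genes. Of 8 venous genes 0 were 1.5-fold apart in the donor library and 3 of 5 were lower in the recipient library, or 2 of 5 without the cells holding other lineages' genes. Vwf, the von Willebrand factor, picked after its value was seen, stood at 216 and 528 CPM there, 2.45-fold lower (1.84 to 3.33), but at a log2 ratio of 0.090 with 2 rule genes required. In the donor library it stood at 510 and 680 CPM. Of 7 MHC class II genes, which present antigen, 0 were 1.5-fold apart in the donor library, with a median log2 ratio of -0.33, and 5 of 6 were lower in the recipient library, with a median of -0.77. Lyve1, a hyaluronan receptor of lymphatic and some capillary endothelium picked after its value was seen, was 1.85-fold higher (1.73 to 1.98) in the donor library, at 550 against 298 CPM, and 1.92-fold higher (1.62 to 2.27) in the recipient library, at 777 against 405 CPM. With 4 or more rule genes required, however, its recipient log2 ratio was -0.33. Spry1, a feedback inhibitor of growth factor signals and likewise picked afterwards, stood at 107 and 54.6 CPM in the donor library and at 151 and 64.0 CPM in the recipient library, 1.96-fold and 2.36-fold. Of the proliferation list 7 genes could be compared in the donor library and 0 were 1.5-fold apart. Of 3 compared in the recipient library 2 were lower, Stmn1, a microtubule regulator, at 229 against 468 CPM, 2.05-fold (1.55 to 2.76), and Hmgb2, a chromatin protein, at 90.6 against 196 CPM, 2.16-fold (1.39 to 3.55).

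**Figure D5:**
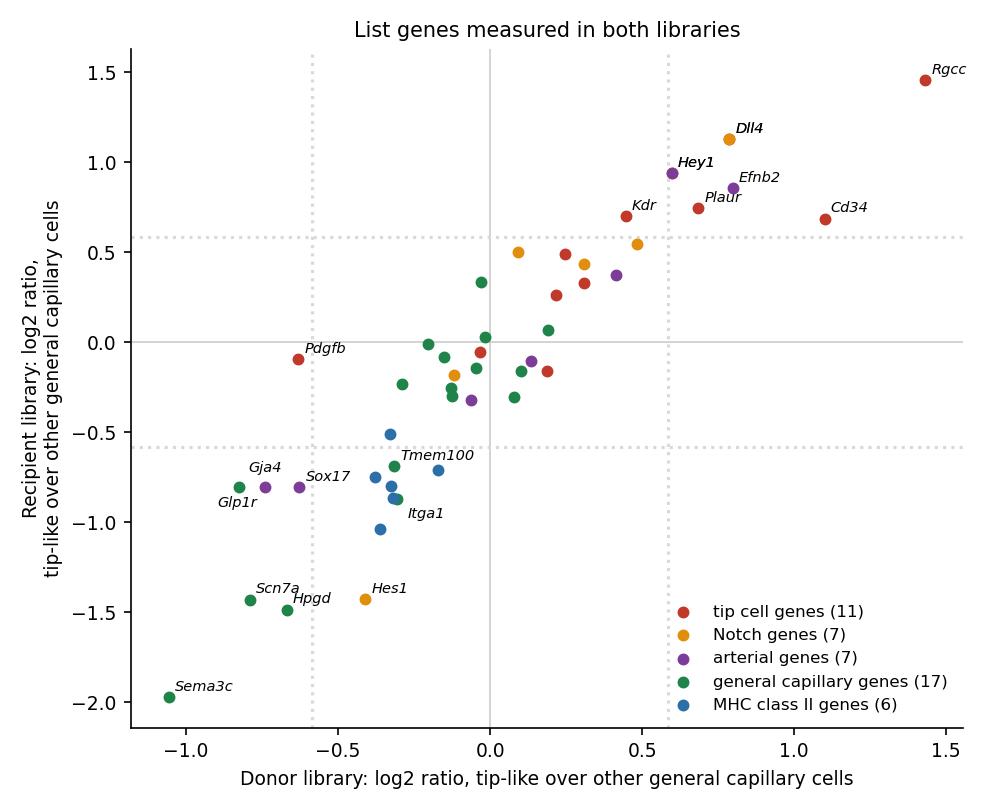
Log2 ratio of tip-like over other general capillary cells for single genes compared in both libraries, in the donor library (horizontal axis) and the recipient library (vertical axis). Colours mark the sprouting, Notch, arterial, general capillary and MHC class II lists, and dotted lines mark 1.5-fold. The list medians, taken over the genes compared in each library and not drawn, were above 0 in both for sprouting (0.31 and 0.49) and Notch genes (0.11 and 0.50). They were below 0 in both for general capillary (-0.15 and -0.26) and MHC class II genes (-0.33 and -0.77), and 0.27 and -0.10 for arterial genes. Single genes departed from their list, such as the Notch target Hes1 at -0.41 and -1.43.

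Between donor and recipient tip-like cells 2101 genes could be compared, of which 6.81% were at least 1.5-fold higher and 5.47% lower in the donor cells. For the genes described, the level in the other general capillary cells of both libraries is set beside the tip-like level. Sox11, a transcription factor of immature cells, had 395 UMIs (173 CPM) in donor and 0 in recipient tip-like cells. Against a floor of 3 UMIs over the recipient cells (12.9 CPM) it was at least 13.4-fold higher, and the exact interval of the ratio began at 10.8-fold. The other cells stood at 299.8 and 33.3 CPM in the donor and recipient libraries, so that within the donor library tip-like cells were 1.73-fold lower (1.56 to 1.93). Ifi204, an interferon-inducible PYHIN gene, stood at 32.9 and 319 CPM in donor and recipient tip-like cells, 9.70-fold higher in the recipient (6.94 to 13.6), and at 29.8 and 308 CPM in the other cells. Mndal, of the same family, went the other way, at 192 and 34.5 CPM in tip-like cells, 5.57-fold (2.80 to 13.0), and at 175 and 52.3 CPM in the others. Lpl, the lipoprotein lipase, stood at 366 and 90.6 CPM in tip-like cells, 4.04-fold (2.62 to 6.55), and at 341 and 101 CPM in the others.

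Other differences between the libraries were wider among tip-like than among other cells, without a test of that difference. Hpgd stood at 2927 and 1070 CPM in donor and recipient tip-like cells, 2.74-fold (2.41 to 3.12), and at 4655 and 2998 CPM in the others, 1.55-fold. Cd74, the invariant chain of MHC class II, stood at 2636 and 1010 CPM in tip-like cells, 2.61-fold (2.29 to 2.99), and at 3286 and 1838 CPM in the others, 1.79-fold. All 6 MHC class II genes compared were higher in donor tip-like cells, at a median log2 ratio of 1.07. In the recipient, however, 52.6% of the Cd74 UMIs lay in 3 of the 36 cells. Gdf15, a stress-induced cytokine, stood at 30.3 and 250 CPM, 8.26-fold higher in the recipient (5.73 to 11.9), with 79.3% of the recipient UMIs in 3 cells, and at 29.9 and 77.1 CPM in the others. Adcy4, Mfap2, Stmn2 and Tspan8 were also named as higher in the donor, and were named again without the cells holding other lineages' genes. The rule also named Sftpa1, Lyz2 and Sftpc as higher in the donor and Aqp5, Ager, Igfbp6, Gprc5a, Ndnf and Akap5 as higher in the recipient. Each gene of this second group had at least 75% of its UMIs on the higher side in 3 cells. Of the tip cell list compared between the libraries 0 of 11 genes were higher and 1 was lower in donor cells, with a median log2 ratio of 0.075.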

How the data were processed

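Libraries and grouping were as described above. Per the labels' protocols, cells were run on the 10x Genomics platform and aligned to mm10. The authors deposited whole-number UMI counts for 32285 genes in each called barcode, made with Cell Ranger (4.0.0 in the matrix headers and per the submitters' processing notes, 3.0.1 per the labels' protocol). Clusters made by the authors were not used.

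A barcode found in both libraries kept its copy with more UMIs, which removed 736 donor and 80 recipient copies. Barcodes under 1000 UMIs (845 donor and 113 recipient) and those with at least 7% mitochondrial UMIs (458 and 328) were also left out. These counts and the removed copies overlap, so they do not add up to the barcodes left out. The filter kept 4945 donor and 3352 recipient barcodes. Scrublet's automatic call marked 2 donor and 135 recipient barcodes, too few in the donor library to be used, so doublets were kept and the highest scores (5.05% and 3.04%) removed only as an alternative.

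UMIs were summed per group and divided by the total without the 6 rule genes (with them for the rule genes and cell classes). A gene counted as different from a ratio of 1.5 on. Named genes had at least 20 CPM on the higher side, a 2-fold ratio with an interval excluding 1.5 and, against other cells, a 1.25-fold ratio in the recipient library (the 15 largest each way, and 10 each way between libraries). Mitochondrial, ribosomal, haemoglobin, sex-linked and unnamed models and the rule and gate genes were left out, and up to 6 members of a list could be named. The rule, the members and the gene lists were chosen with earlier results of these data known. Neighbours used 15 components of 1000 variable genes. Scripts were tested on simulated data and ran in Python 3.11.15 with numpy 2.4.6, scipy 1.17.1, pandas 2.3.3, scikit-learn 1.9.0, scanpy 1.11.5 and matplotlib 3.10.9. Positions came from GENCODE (GRCm38, the build of mm10) and promoters from RefSeq. Promoters of 4 of the 6 rule genes were searched, because Grp was not looked up and Rnd1 had no entry. Alternatives changed the marker count, barcodes, cell filter, gates, doublets, depth, CPM minimum and weights. Leaving out cells with at least 10 UMIs of another lineage's genes was chosen after seeing the data. The values of some list genes are not reported here, though the lists' counts include them.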

Additional observations from a re-analysis of the deposited data

Results flagged for a closer look

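Of the 5 genes in which tip-like cells stood apart from the other general capillary cells by at least 1.5-fold in opposite directions in the donor and recipient libraries, 2 were named by the rule or stood on a gene list. Gas6, a ligand of the TAM receptors, had a log2 ratio of -0.68 among donor-library cells and 1.33 among recipient-library cells, where 75.6% of the tip-like UMIs lay in 3 cells. Without the cells holding other lineages' genes its ratios were 0.412 and 1.43, the second below the 1.5-fold limit. Scgb1a1, the club cell secretoglobin, had a log2 ratio of -1.66 among donor-library cells, on 18 tip-like UMIs, and 0.60 among recipient-library cells, on 40. Without the cells holding other lineages' genes the donor levels were 2.35 and 2.39 CPM, a ratio of 0.983, and the recipient ratio was 1.52. The other 3 genes, picked after their values were seen, were Spp1, Apoe and Mgp, each higher in donor and lower in recipient tip-like cells. Without the cells holding other lineages' genes their ratios were 0.543 and 1.09 for Spp1, 1.52 and 0.517 for Apoe, and 1.11 and 0.692 for Mgp. With 1 library per group the difference between the libraries was not tested.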

How the results depend on the processing

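The share of tip-like cells stayed between 16.0% and 17.8% in the donor library and between 10.8% and 12.3% in the recipient library under every alternative to the shared barcodes, cell filter, gate, interferon limit and doublets and without other lineages' cells. It moved with the marker count and depth: 35.2% and 29.6% with at least 2 markers, 6.44% and 4.40% with at least 4, and 8.40% and 5% in thinned cells. Counts of genes moved with the number of genes that could be compared. In the donor library 151 genes were higher and 97 lower with at least 2 markers, and 52 and 41 at a mean of at least 50 CPM. In the recipient library 276 were higher with at least 2 markers, 68 higher and 38 lower with at least 4, and 67 higher and 54 lower in thinned cells. Between the libraries' tip-like cells 240 were higher and 275 lower in the donor with at least 2 markers, 38 and 49 with at least 4, and 50 and 44 in thinned cells.

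Of 2631 alternative values of 182 gene ratios, 69 in 22 genes were counted as reversed, and the cause was not tested. These were sign changes of ratios at least 1.5-fold apart before any alternative. Some smaller ratios also changed sign and are not in this count. In the recipient library the log2 ratio of Tgfb2 ranged from -3.28 to 0.95, Nrp2 from -0.47 to 1.23 and Angpt2 from -2.09 to 0.29. Emp2 ranged from -0.66 to 0.38 in the donor library. As log2 ratios in the donor library, at least 4 markers gave Sftpc -4.07, Slc34a2 -2.94, Alcam -0.51, Ager -1.36, Col4a4 -0.66, Igfbp2 -0.44, Cldn18 -2.25 and Clic3 -0.13. Thinned cells gave Sftpc -4.04, Slc34a2 -3.11, Alcam -0.66, Igfbp6 -2.79, Ager -1.73, Col4a4 -0.81, Igfbp2 -1.09 and Cldn18 -0.45. Without shared barcodes Sftpd was -0.31 and Igfbp6 -0.40, and without cells holding other lineages' genes Sftpd was -0.28, Igfbp6 -1.54 and Cldn18 -0.38. Without the 3 cells richest in the gene, Aqp5 was -0.45, Ager -0.34 and Cldn18 -0.29.

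In the recipient library, at least 2 markers gave Sftpd -0.17, Fbln2 -1.17, Kank4 0.20, Acvr1b 0.20 and Vwf 0.090, and at least 4 gave Aqp5 -1.0, Igfbp6 -1.14, Ager -1.72, Trim47 -0.052, Emp2 -0.063 and Lyve1 -0.33. Without shared barcodes Aqp5 was -0.010, Igfbp6 -0.63, Igfbp2 -1.40 and Vegfa -0.0092, and without the highest doublet scores Alcam was -0.075, Igfbp6 -0.59 and Igfbp2 -1.35. Thinned cells gave Aqp5 -0.82, Igfbp6 -1.98, Ager -1.80, Emp2 -2.18 and Hspg2 -0.96. The mean of per-cell CPM gave Sftpd -0.16, and weighting the other cells to the depth of tip-like cells gave Hspg2 -0.022. Without cells holding other lineages' genes Alcam was -0.037, Igfbp6 -0.55, Ager -0.59, Igfbp2 -1.32 and Vegfa -0.10, and without the 3 richest cells Ager was -0.95, Vegfa -0.14, Emp2 -0.32 and Hspg2 -2.17.

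Between donor and recipient tip-like cells Gprc5a was 0.069 with at least 4 markers, 0.28 without shared barcodes and 2.18 without the highest doublet scores, where Aqp5 was 1.53, Igfbp6 1.37 and Ager 1.53. Sftpc was -0.45 without shared barcodes, -0.20 in thinned cells and -0.20 without its 3 richest cells, and without cells holding other lineages' genes Sftpc was -0.47 and Lyz2 -0.037. Dll4, Efnb2, Gja1, Ivns1abp, Sema3c, Hpgd, Glp1r and Hey1 kept their direction in both libraries under each alternative. Gja1 ranged from 2.92 to 3.51 in the donor and from 1.74 to 4.04 in the recipient library, Dll4 from 0.73 to 0.97 and from 0.84 to 1.40, and Sema3c from -1.32 to -0.99 and from -2.86 to -0.89. The 36 recipient cells limit every recipient value, and 20 UMIs there correspond to 86.3 CPM. No paired analysis was possible because each group is 1 library.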
